A study of Homo sapiens with 18 samples.

Results

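The genes described here are the MHC class II genes HLA-DRA, HLA-DRB1, HLA-DPA1, HLA-DPB1, HLA-DMA and HLA-DMB, the invariant chain gene CD74, the protease gene CTSS and CIITA, the transactivator of the class II genes. They were taken from the count table by the Ensembl identifier of each symbol in the primary GRCh37 assembly, which gave 9 genes of 63677. No gene was dropped for lack of counts. The choice was set on chromosomes 6, 5 and 16, which hold 8 of the 9 genes. CTSS lies on chromosome 1 and was kept because it was listed by name.

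RNA was sequenced from the 3′ end (QuantSeq) in 18 libraries of THP-1, a human monocytic leukaemia line that grows in suspension. KD cells had received an siRNA against TRAFD1, a zinc finger protein that acts as a brake on innate immune signalling, and SCR cells a control siRNA without a target, each at 25 nM. WT cells had received no siRNA, and the labels differ on whether they were left alone or given the transfection reagent, so a difference from WT cannot be divided between the siRNA and the reagent. At 72 h after transfection each condition was kept in medium (unstimulated) or exposed to lipopolysaccharide (LPS), a component of the outer membrane of Gram-negative bacteria, at 10 ng/ml for 4 h, which gave 6 groups of 3 libraries. All groups are the same cell line, 1 siRNA stands for the knockdown, and nothing in the sources used here says that the 3 libraries of a group came from separate cultures on separate days, so every p-value measures the spread between these libraries only.

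MHC class II molecules are pairs of an alpha and a beta chain that show peptides from the endosome to CD4+ T cells. The invariant chain CD74 blocks the groove of new molecules, cathepsin S (CTSS) trims it down to the CLIP peptide, and HLA-DM exchanges CLIP for antigen. Transcription of the genes depends on CIITA, which does not bind DNA itself but docks on RFX, CREB and NF-Y proteins assembled over the X and Y boxes of the promoters; in monocytes CIITA is induced by interferon gamma.

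Promoters of 6 of the 9 genes were found in RefSeq (GRCh38.p14), as windows of 300 bases that run from 250 before to 50 after the start. Those of HLA-DRA, CIITA and CTSS were not analysed here. For the X box region the letters TGATGA, called the X core here, were searched, and for the Y box ATTGG, the Y core, each on either strand. The letters of the motifs do not overlap. Which part of the X box region the X core falls on was not determined, so it need not mark the same element in each window. An X core followed within 40 bases by a Y core was present in 3 of the 7 windows of these genes, those of HLA-DRB1, HLA-DMA and CD74, and in 271 of all 35116 windows (0.772%). The X core alone was present in 10.9% and the Y core alone in 34.6% of all windows. The 120 bases before the start are printed 5′ to 3′ for these 3 genes, because they hold the pair of letter matches at HLA-DRB1 and CD74, the 2 most abundant of the 9 genes, and at an HLA-DM gene, with X and Y cores in capitals. All 3 lie on the minus strand, at chr6:32589849-32589968 for HLA-DRB1, chr6:32953098-32953217 for HLA-DMA and chr5:150412911-150413030 for CD74.

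HLA-DRB1: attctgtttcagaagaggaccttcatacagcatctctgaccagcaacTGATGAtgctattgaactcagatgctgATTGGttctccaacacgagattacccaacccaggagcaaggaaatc
HLA-DMA: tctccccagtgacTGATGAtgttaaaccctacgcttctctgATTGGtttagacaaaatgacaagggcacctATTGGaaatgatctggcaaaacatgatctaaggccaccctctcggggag
CD74: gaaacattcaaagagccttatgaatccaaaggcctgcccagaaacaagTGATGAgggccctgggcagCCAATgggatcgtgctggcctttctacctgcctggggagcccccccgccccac

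The X core began 73 bases before the start in HLA-DRB1, 107 in HLA-DMA and 72 in CD74. Between X and Y cores lay 21 bases in HLA-DRB1, 22 in HLA-DMA and 13 in CD74, where the Y core is on the opposite strand. A match of these letters is a description of the window and not a measured binding site.

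Library totals ran from 8206023 to 22344279 counts, so that 3 counts corresponded to between 0.134 and 0.366 CPM, the unit used throughout, in which counts are scaled to the library total. TRAFD1 itself read 26.8, 20.1 and 24.2 CPM in unstimulated SCR libraries against 11.6, 5.36 and 9.01 CPM in KD, and fell by 1.45 on the log2 scale (SE 0.23; edgeR quasi-likelihood test, adjusted p = 0.0277). That call was lost without SCR replicate 1 (adjusted p = 0.119), SCR replicate 3 (0.112) or KD replicate 2 (0.064). With LPS it read 21.9, 27.4 and 18.7 CPM in SCR against 15.8, 14.0 and 13.8 CPM in KD, without overlap, at a log2 fold change of -0.65 (adjusted p = 0.262). Of the markers of the line, FCGR1A read 249 to 341 CPM, CD68 32.5 to 118 and CD14 8.51 to 43.0, and the sum of 8 monocyte markers was 411 to 472 CPM in unstimulated WT, 490 to 538 in SCR and 520 to 563 in KD, but overlapped between the conditions with LPS (433 to 502 CPM). The B cell markers MS4A1 and CD79A stayed at 0 to 3 counts, as did the T cell markers CD3D, CD3E and CD2, and CD1C, CLEC9A and CLEC10A of dendritic cells reached at most 5 counts. PAX5 was nevertheless counted at 26.0 to 49.8 CPM, and the sum of 5 B cell markers ran from 29.9 to 35.4 CPM in unstimulated WT and from 49.5 to 53.4 CPM in KD with LPS, with the other groups between. The part of these markers in the results below was not tested. In bulk RNA, fewer cells that carry a transcript and less of it per cell cannot be told apart.

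Counts of the class II pathway genes were uneven. Each gene was counted over a window of 500 bases at its 3′ end, so CPM do not depend on gene length. Whether each transcript ends inside its window in these cells was not checked. Levels set side by side between genes are therefore levels of counted reads. Over the 18 libraries HLA-DRB1 averaged 102.1 CPM (range 79.8 to 131), CD74 98.3 CPM (80.0 to 131) and CTSS 86.6 CPM (70.7 to 103). HLA-DRB1 exceeded CD74 in 10 of 18 libraries and CD74 exceeded CTSS in 13, so the order of these 3 is within their spread. HLA-DRA came next at 5.98 CPM (2.80 to 10.1), below CTSS in all 18 libraries and with no overlap of their ranges.

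The remaining genes were near the depth limit. HLA-DMA averaged 2.06 CPM, HLA-DPA1 1.42, CIITA 1.41, HLA-DPB1 0.461 and HLA-DMB 0.187. HLA-DRA was above HLA-DMA in 18 libraries of 18, HLA-DMA above HLA-DPA1 in 14, HLA-DPA1 above CIITA in 8, CIITA above HLA-DPB1 in 15 and HLA-DPB1 above HLA-DMB in 13. Among the 6 class II genes on chromosome 6, HLA-DRB1 supplied between 86.3% and 94.8% of the summed CPM.

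**Figure D1:**
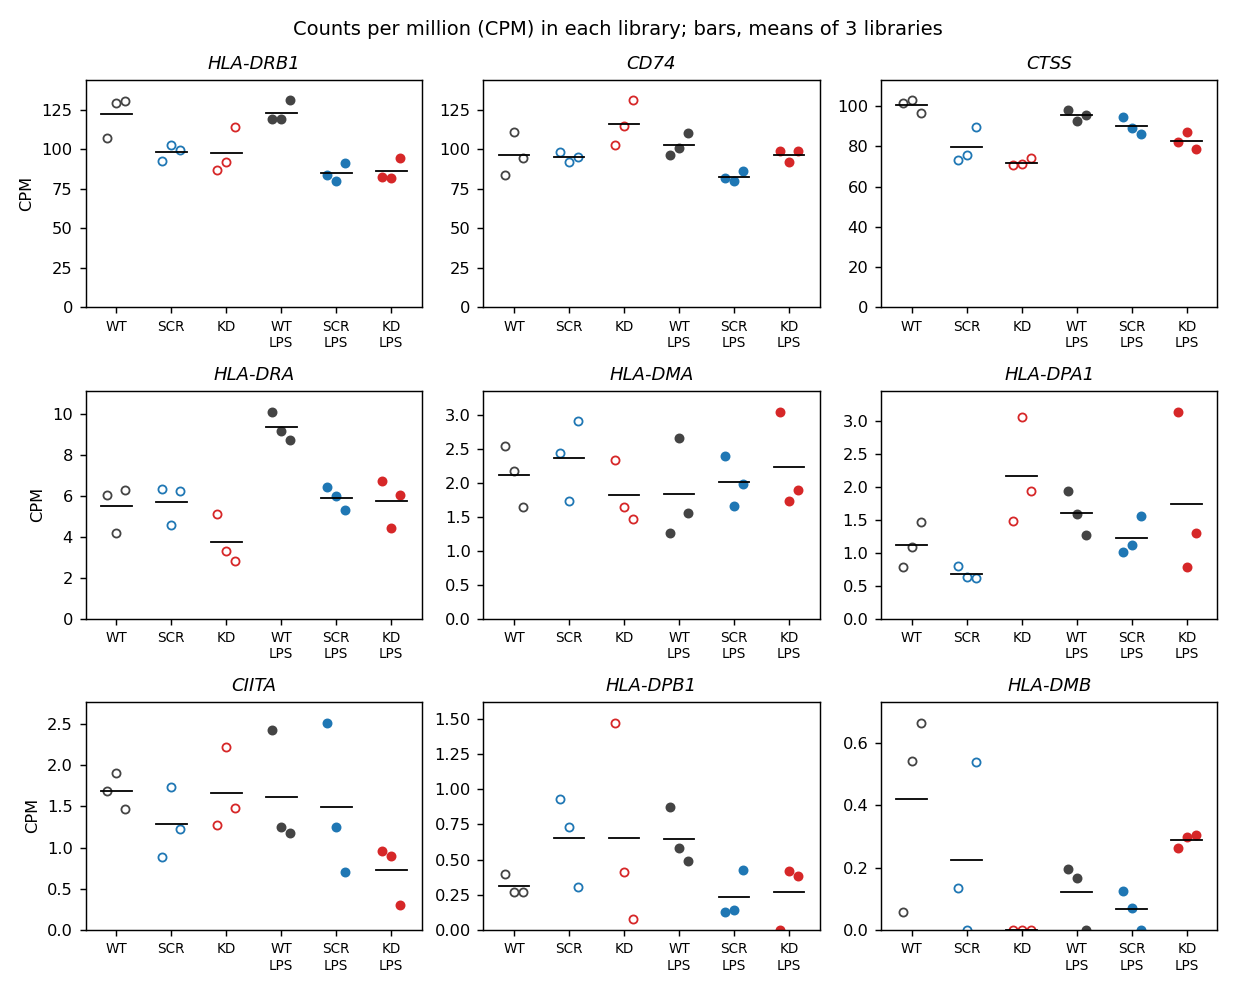
CPM of the 9 genes (y axis, linear and starting at 0, a scale for each gene) in each library, by condition and treatment (x axis; open circles unstimulated, filled circles LPS); bars are means of 3 libraries. HLA-DRB1, CD74 and CTSS lie between 70.7 and 131 CPM in every library, HLA-DRA between 2.80 and 10.1 CPM, and the WT bars of HLA-DRB1 stand above those of SCR and KD in both states.

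HLA-DRA and HLA-DRB1 encode the alpha and beta chains of the same dimer, yet HLA-DRB1 had 11.8 to 40.8 times as many counts as HLA-DRA. HLA-DRA (ENSG00000204287) lies at chr6:32407655-32412823 on the plus strand and HLA-DRB1 (ENSG00000196126) at chr6:32545679-32557625 on the minus strand. HLA-DRB1 has a related copy in HLA-DRB5: over the last 500 bases of its transcript and that of HLA-DRB5, 390 of 434 aligned positions were the same (89.9%), and 27 of 461 stretches of 40 bases (5.86%) occurred in both. HLA-DRB3 and HLA-DRB4 were not analysed here, and alleles differ between cell lines and the reference, so a share of HLA-DRB1 counts could belong to a related gene. Whether HLA-DRA transcripts end inside the counted window was not checked, so some could also have been missed.

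TRAFD1 knockdown was compared with the control siRNA first. By edgeR's quasi-likelihood test with Benjamini-Hochberg adjustment over 16678 genes at a threshold of 0.05, which tested 8 of the 9 genes, 0 of 8 passed in unstimulated cells, where 0.066% of all genes did. With LPS 0 of 8 passed, as did 0% of all genes. At an unadjusted p under 0.05 the counts were 3 of 8 unstimulated, beside 12.6% of all genes, and 1 of 8 with LPS, beside 11.8%. DESeq2 called 0 of these genes in either state. The median log2 fold change of the 8 genes was -0.01 unstimulated and 0.09 with LPS, against -0.01 and 0.02 over all genes tested.

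Of the 8 genes, CD74 and HLA-DPA1 were higher in all 3 KD libraries than in every SCR library without LPS, 2 of 8 beside 6.45% of all genes. CD74 (ENSG00000019582, chr5:149781200-149792532, minus strand) read 103, 115 and 131 CPM in unstimulated KD and 98.2, 92.2 and 95.2 CPM in SCR. With LPS it read 99.1, 91.9 and 99.0 CPM in KD and 81.9, 80.0 and 86.2 CPM in SCR. KD was the higher group without overlap in both states, though with LPS 10.8% of all genes were too.
The log2 fold change of CD74 was 0.29 unstimulated (SE 0.11, 95% interval 0.07 to 0.51, adjusted p = 0.255) and 0.23 with LPS (SE 0.11, 0.00 to 0.45, adjusted p = 0.422). Neither passed the threshold, so CD74 is not called changed by the knockdown.

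HLA-DPA1, an alpha chain that pairs with HLA-DPB1, gave 22, 37 and 25 counts in unstimulated KD and 18, 7 and 8 counts in SCR, or 1.48, 3.05 and 1.94 CPM against 0.799, 0.639 and 0.615 CPM. The groups did not overlap, and the log2 fold change was 1.62 (SE 0.50, 95% interval 0.58 to 2.66, adjusted p = 0.173). With LPS the KD libraries read 3.14, 0.779 and 1.29 CPM and the SCR libraries 1.01, 1.11 and 1.56 CPM, an overlap in which KD held both the highest and the lowest value. HLA-DPA1 (chr6:33032346-33048552, minus strand) overlaps HLA-DPB1 (chr6:33043767-33057473, plus strand), but their 3′ ends lie at opposite ends of the pair.

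HLA-DRA read 5.10, 3.30 and 2.80 CPM in unstimulated KD and 6.35, 4.56 and 6.23 CPM in SCR. The ranges overlapped through KD replicate 1, and the log2 fold change was -0.61 (SE 0.25, unadjusted p = 0.0218 and adjusted p = 0.297 by edgeR). With LPS it was 6.72, 4.43 and 6.01 CPM in KD and 6.42, 5.97 and 5.31 CPM in SCR, at -0.05 (SE 0.24, adjusted p = 0.96). HLA-DRB1 had the narrowest intervals around 0 of the class II chains: -0.24 to 0.22 unstimulated and -0.21 to 0.26 with LPS, on the log2 scale.

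CIITA (ENSG00000179583, chr16:10960079-11036878, plus strand) had 4 to 33 counts per library. Unstimulated KD libraries read 1.27, 2.23 and 1.48 CPM and SCR libraries 0.888, 1.73 and 1.23 CPM. With LPS the KD libraries read 0.960, 0.899 and 0.304 CPM and the SCR libraries 2.52, 1.25 and 0.708 CPM, so the groups overlapped in both states. The log2 fold changes were 0.39 (SE 0.50) and -0.98 (SE 0.54, adjusted p = 0.488), and the interval of the latter ran from -2.10 to 0.14.

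**Figure D2:**
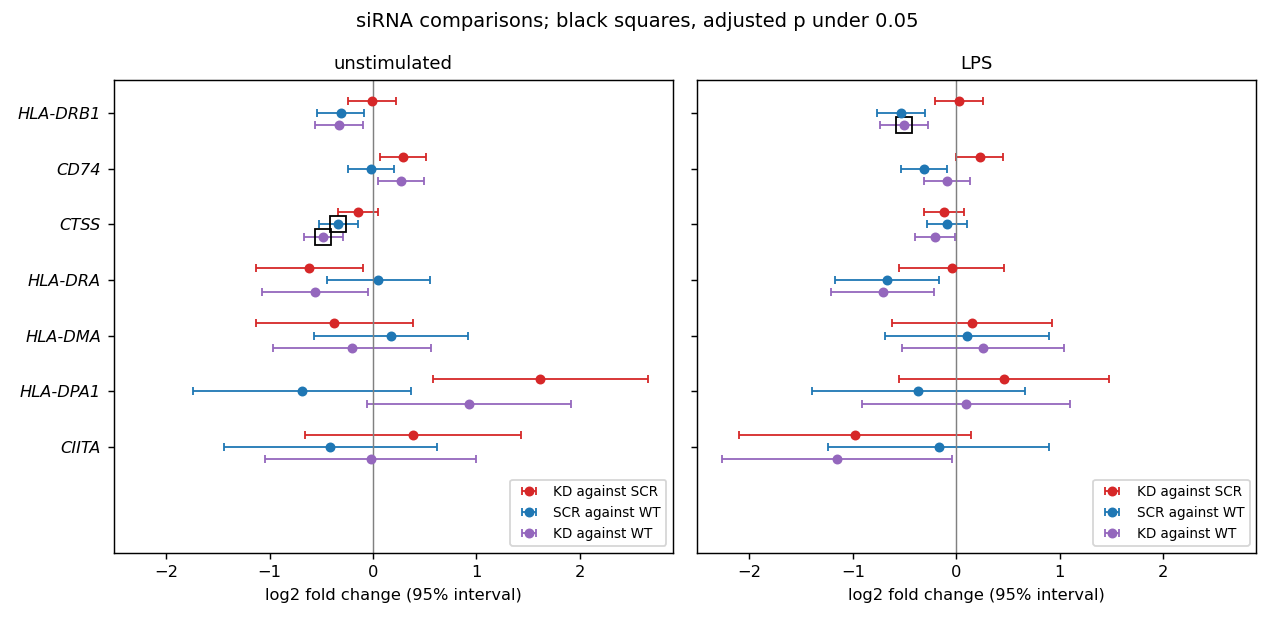
Log2 fold change (x axis, with 95% intervals) of 7 of the 8 genes tested (y axis), unstimulated on the left and with LPS on the right; colours give the pair of conditions, and black squares mark an adjusted p under 0.05. HLA-DPB1 is left out for its low counts. The KD against SCR points carry no square, and squares lie on CTSS unstimulated (SCR and KD against WT) and on HLA-DRB1 with LPS (KD against WT).

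The control siRNA was compared with WT to show what the siRNA conditions share. CTSS fell in unstimulated SCR, 1 of 8 genes, where 3.23% of all genes passed and 1.45% did so in that direction. CTSS (ENSG00000163131, chr1:150702555-150738433, minus strand) read 101, 103 and 96.7 CPM in WT and 73.4, 75.6 and 89.4 CPM in SCR, with no overlap. Over the same libraries the monocyte marker CD14 read 10.9, 16.9 and 20.6 CPM in WT and 43.0, 30.6 and 32.6 CPM in SCR (log2 fold change 1.14, adjusted p = 0.00311 in edgeR). It was 1 of 8 such markers called. The sum of the 8 was higher in SCR without overlap, but their median log2 fold change was 0.08. LYZ went the other way, at 47.4, 40.2 and 42.5 CPM in WT and 37.6, 28.7 and 38.9 CPM in SCR. FCGR1A, the largest term of the sum, overlapped, at 249, 250 and 294 CPM in WT and 310, 278 and 305 CPM in SCR. The part of these markers in the difference was not tested. CTSS was lower by 20.7%, at a log2 fold change of -0.34 (SE 0.09, adjusted p = 0.0456). The call was lost without WT replicate 1 (adjusted p = 0.122), 2 (0.0958) or 3 (0.0949) and without SCR replicate 1 (0.203) or 2 (0.14), and without a filter on low counts (0.142).

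HLA-DRB1 was the other gene of the set with all SCR libraries below all WT libraries without LPS (2 of 8 lower, where 11.5% of all genes were). It read 107, 129 and 130 CPM in WT and 92.6, 103 and 99.9 CPM in SCR, at a log2 fold change of -0.31 (SE 0.11, adjusted p = 0.127). With LPS the distance was wider, at 119, 119 and 131 CPM in WT and 83.8, 79.8 and 91.3 CPM in SCR. The LPS response of HLA-DRB1 was not called different between SCR and WT, so the wider distance is not read as a result. HLA-DRB1 with LPS was lower in SCR by 31.0%, at -0.53 (SE 0.11), and just missed the threshold at an adjusted p of 0.0563 by edgeR. In this comparison same-numbered libraries deviated together (correlations 0.261, 0.163 and 0.253), a pairing read from these data and given by no label. With a replicate block in edgeR, which assumes that pairing in every condition, the log2 fold change was -0.54 and the adjusted p 0.00827, which passed. Since the pairing was read from the same libraries it was then fitted to, the block's value adds no weight.

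With LPS 0 of 8 genes passed by edgeR between SCR and WT, beside 0.114% of all genes, 3 of 8 had an unadjusted p under 0.05 (13.7% of all genes), and DESeq2 called 1, HLA-DRB1. The SCR libraries lay below the WT libraries without overlap in 4 of 8 genes, where 12.2% of all genes did so. These were HLA-DRA, HLA-DRB1, HLA-DPB1 and CD74. HLA-DPB1 gave only 1, 2 and 6 counts in SCR and 9, 7 and 5 in WT. Its raw counts overlapped, and the separation came with the scaling to depth. HLA-DRA read 10.1, 9.18 and 8.70 CPM in WT and 6.42, 5.97 and 5.31 CPM in SCR, at -0.67 (SE 0.24, adjusted p = 0.247). CD74 read 96.7, 101 and 111 CPM in WT against the SCR values above, at -0.31 (SE 0.11, adjusted p = 0.229). The median of the 8 genes was -0.34, against 0.01 over all genes.

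KD was then compared with the same WT libraries, so its values and those of SCR against WT share their controls. With LPS, TRAFD1 itself read 19.1, 20.3 and 11.5 CPM in WT, a range that held all 3 KD libraries, at a log2 fold change of -0.23 (SE 0.23, adjusted p = 0.563), whereas unstimulated KD was at -1.23 against WT (SE 0.23, adjusted p = 0.00156). Within KD, TRAFD1 was higher with LPS by 0.73 (SE 0.23, adjusted p = 0.0456), a call lost when any library but unstimulated KD replicate 1 was left out (adjusted p from 0.0787 to 0.181). HLA-DRB1 fell in KD with LPS, 1 of 8 genes, beside 10.8% of all genes called and 4.55% called lower. KD libraries read 82.8, 82.1 and 94.6 CPM, all below the 119 CPM of the lowest WT library. The decrease was 29.7%, at -0.51 on the log2 scale (SE 0.11, adjusted p = 0.00802). It was lost without WT replicate 6 (adjusted p = 0.0575) or KD replicate 5 (0.0502).

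HLA-DRA in KD with LPS was at -0.71 against WT (SE 0.24, adjusted p = 0.0603), again without overlap. It passed with relative log expression factors (adjusted p = 0.0474), in DESeq2 (0.0255), with the replicate block (0.0348) and in edgeR on these 6 libraries alone (0.0203). The block pairs libraries by number, but in this comparison same-numbered libraries did not deviate together (correlations -0.074, 0.037 and -0.006). Its value therefore adds no weight. In all, the KD libraries lay below the WT libraries without overlap in 5 of 8 genes with LPS, where 16.4% of all genes did. These were HLA-DRA, HLA-DRB1, CTSS, CIITA and HLA-DPB1. CIITA gave 11, 15 and 4 counts in KD and 25, 15 and 12 in WT, and HLA-DPB1 0, 7 and 5 against 9, 7 and 5. The raw counts of CIITA and HLA-DPB1 thus overlapped, and their separation rests on few counts and the scaling to depth.

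Without LPS, CTSS fell in KD against WT, 1 of 8 genes, beside 11.7% of all genes called and 5.85% called lower. KD libraries read 70.7, 71.0 and 74.0 CPM, below every WT library, a decrease of 28.3% at a log2 fold change of -0.48 (SE 0.09, adjusted p = 0.00181). In edgeR on the 6 libraries alone the adjusted p was 0.0786. CD14 (0.72, adjusted p = 0.0232) and CD68 (0.95, adjusted p = 0.015), 2 of the 8 monocyte markers, were called higher in the same comparison. The median log2 fold change of the 8 was 0.13, and their part was not tested. HLA-DRB1 read 86.6, 91.8 and 114 CPM in KD, which overlapped the lowest WT library, at -0.33 (adjusted p = 0.0606).

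CD74 and HLA-DRB1 differed in how they stood to each other across conditions, a pattern noticed after their values were seen and given with no test. In unstimulated libraries the ratio of CD74 to HLA-DRB1 counts was 0.789 ± 0.068 (SD, n = 3) in WT, 0.971 ± 0.082 in SCR and 1.20 ± 0.054 in KD. With LPS it was 0.835 ± 0.022, 0.975 ± 0.029 and 1.12 ± 0.075. The ranges of the 3 conditions did not overlap within either state: with LPS they were 0.810 to 0.851, 0.944 to 1.00 and 1.05 to 1.20. Across the 18 libraries, which share groups and depth, the Pearson correlation of their log2 CPM was 0.446, and 0.761 after the group means were taken out.

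**Figure D3:**
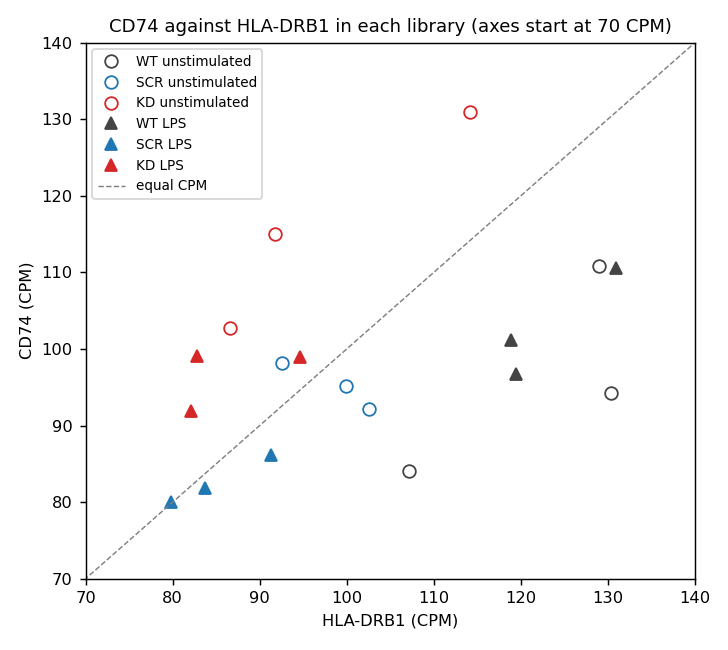
CD74 CPM (y axis) against HLA-DRB1 CPM (x axis) in each of 18 libraries, with both axes starting at 70 CPM; colours give the condition, open circles unstimulated and triangles LPS, and the dashed line marks equal CPM. The WT libraries lie below the line, at ratios from 0.723 to 0.859, the SCR libraries along it and the KD libraries above it, at 1.05 to 1.25.

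LPS was then compared with medium within each condition. HLA-DRA rose in WT, 1 of 8 genes, where 14.3% of all genes passed and 7.01% rose. It read 6.04, 4.17 and 6.26 CPM in unstimulated WT and 10.1, 9.18 and 8.70 CPM with LPS, with no overlap. The rise was 68.1%, at a log2 fold change of 0.75 (SE 0.24, adjusted p = 0.0379). Every one of the 6 libraries was needed for the call: the adjusted p was 0.0647, 0.143 and 0.0552 without unstimulated replicates 1, 2 and 3, and 0.119, 0.0812 and 0.0634 without LPS replicates 4, 5 and 6. Without a filter on low counts it was 0.0754.

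In SCR 0 of 8 genes passed by edgeR with LPS, beside 17.2% of all genes, 0 had an unadjusted p under 0.05 (30% of all genes did) and DESeq2 called 0. HLA-DRA in SCR was at 0.03 (SE 0.24). In KD 0 of 8 passed by edgeR or DESeq2, beside 11.5% of all genes, and 4 of 8 had an unadjusted p under 0.05, beside 26.1%. These were HLA-DRA at 0.60 (SE 0.25, adjusted p = 0.129), CD74 at -0.27 (SE 0.11, 0.115), CIITA at -1.18 (SE 0.53, 0.157) and CTSS at 0.20 (SE 0.09, 0.165).

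Unstimulated KD replicate 1 stood apart from KD replicates 2 and 3 in several pathway genes, IFNGR1 among them at 22.1 CPM against 5.03 and 9.47. Without that library 2 of the genes passed for LPS in KD, HLA-DRA at 0.90 (adjusted p = 0.0219) and CD74 at -0.35 (adjusted p = 0.0323). For CD74 this was the only 1 of 6 fits with a library left out that passed. The share of all genes that passed in that fit is not given here. These calls are therefore not read as a result about the genes.

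The difference of the LPS responses between conditions was tested directly. Of 24 such tests, 0 passed by edgeR and 3 had an unadjusted p under 0.05. For HLA-DRA the response in SCR less that in WT was -0.72 (SE 0.34, adjusted p = 0.493), beside 0.234% of all genes passing and 9.96% at an unadjusted p under 0.05. For CD74 the response in KD less that in WT was -0.36 (adjusted p = 0.268) and for CTSS 0.27 (adjusted p = 0.314), beside 0.36% and 15.5%. Between KD and SCR 0 of 8 had an unadjusted p under 0.05, where 7.64% of all genes did, and 0% of all genes passed. The rise of HLA-DRA in WT is therefore not shown to differ from its value in SCR or KD.

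**Figure D4:**
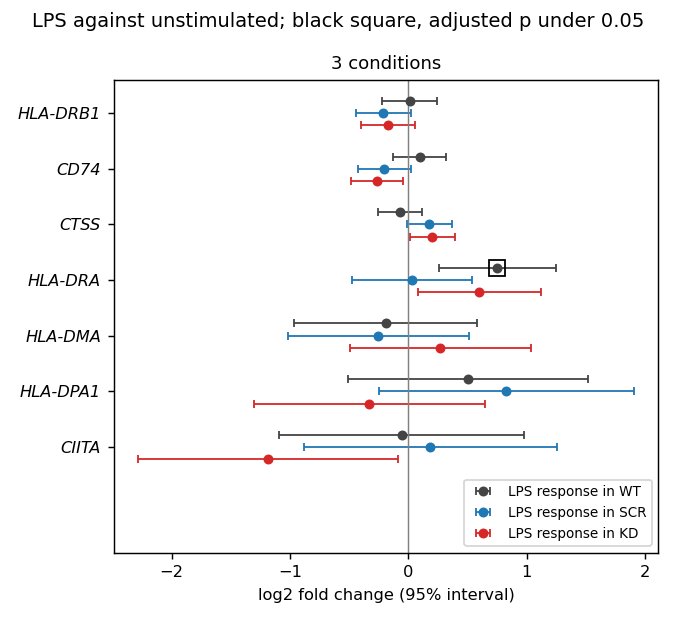
Log2 fold change of LPS against unstimulated (x axis, with 95% intervals) for 7 of the 8 genes tested (y axis), within WT, SCR and KD (colours); the black square marks an adjusted p under 0.05. HLA-DRA in WT, at 0.75, carries the square, HLA-DRB1, CD74 and CTSS lie within 0.27 of 0, and the intervals of HLA-DPA1 and CIITA are the widest.

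HLA-DM and HLA-DPB1 were too scarce for firm statements. HLA-DMA (chr6:32916390-32936871, minus strand) read 1.26 to 3.05 CPM, and its adjusted p ran from 0.69 to 0.98 over 12 comparisons. HLA-DMB (chr6:32902406-32908805, minus strand) had 0 to 15 counts and failed the filter on low counts. It had 0 counts in all 3 unstimulated KD libraries and 3, 5 and 4 counts in KD with LPS. Averaged over the conditions, its mean log2(CPM + 0.5) with LPS differed by -0.05 from that without (two-sided exact permutation test within conditions, p = 0.793, adjusted p = 0.94 over 3 tests). That average does not test the KD counts by themselves. In WT the counts were 1, 6 and 15 unstimulated and 2, 2 and 0 with LPS, and in SCR 3, 0 and 7 and then 1, 1 and 0. The KD counts alone were not tested, since 3 libraries against 3 leave too few arrangements to reach 0.05. Averaged over both states, HLA-DMB in KD less SCR was 0.01 (exact permutation p = 0.94) and in SCR less WT -0.24 (p = 0.315, both adjusted p = 0.94).
HLA-DPB1 had 0 to 22 counts, and its adjusted p ran from 0.301 to 1 over the same comparisons.

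The other genes of the pathway were counted from 5 lists. Of 9 other class II genes listed, 7 were analysed and 4 had the counts to be tested. HLA-DQB1, a beta chain, passed in unstimulated cells. It read 20.8, 13.1 and 15.0 CPM in WT, 7.86, 10.2 and 10.1 CPM in SCR and 8.65, 8.33 and 6.91 CPM in KD. Both siRNA groups lay below WT without overlap, SCR at a log2 fold change of -0.81 (SE 0.19, adjusted p = 0.0251) and KD at -1.03 (SE 0.20, adjusted p = 0.00179). The summed monocyte markers, though not every marker, were higher in these SCR and KD libraries than in WT, as given for CTSS, and their part was not tested. The SCR call was lost without WT replicate 1 (adjusted p = 0.147) or SCR replicate 1 (0.147) or 3 (0.0586). HLA-DQA1, which encodes its alpha chain partner, had at most 1 count in its window. Between KD and SCR 0 genes of any of the 5 lists passed by edgeR in either state.

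All 7 genes of the RFX, NF-Y and CREB1 proteins that carry CIITA were tested, and none passed in the 6 comparisons between conditions, where 0% to 11.7% of all genes did. With LPS 1 of 7 passed in WT, 1 in SCR and 3 in KD, beside 14.3%, 17.2% and 11.5% of all genes. RFXAP, a subunit of RFX, fell with LPS in WT, to a log2 fold change of -1.01 (SE 0.27, adjusted p = 0.0124) and in KD, to -1.10 (SE 0.27, adjusted p = 0.0103). NFYA, the subunit of NF-Y that contacts the CCAAT motif, rose with LPS in SCR by 0.62 (SE 0.18, adjusted p = 0.0229) and in KD by 0.89 (SE 0.18, adjusted p = 0.00265). RFX5 in KD had a value of 1.06 (adjusted p = 0.0178), with libraries at 36.9, 12.8 and 20.3 CPM unstimulated and 55.9, 56.4 and 34.2 CPM with LPS that overlapped. These are opposite directions within a list of 7, and its median was between -0.11 and 0.06 in the 3 LPS comparisons.
The RFXAP calls were lost without KD with LPS replicate 4 (adjusted p = 0.0543) and without WT unstimulated replicate 1 (0.0617), WT with LPS replicate 5 (0.0592) or 6 (0.0682). That of NFYA in SCR was lost without SCR unstimulated replicate 1 (0.153), SCR with LPS replicate 5 (0.0648) or 6 (0.0537), and that of RFX5 without KD unstimulated replicates 2 (0.0696) or 3 (0.0828) or KD with LPS replicates 4 (0.0633) or 5 (0.0774).

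Genes that act upstream of CIITA responded to LPS in every condition. Of 10 tested, WT had 3 that rose, SCR 5 and KD 4, with 0 that fell, where 7.01%, 8.64% and 6.41% of all genes rose. IFNGR2, a chain of the interferon gamma receptor, rose by 1.23 in WT, by 0.96 in SCR and by 1.08 in KD (SE 0.08 each), with adjusted p-values of 3.13e-10, 2.5e-08 and 5.45e-09. IRF1, a factor that binds the interferon-inducible CIITA promoter, rose by 0.70, 0.43 and 0.41 (adjusted p = 4.06e-05, 0.00554 and 0.012). PRDM1, a repressor of CIITA, rose by 1.45, 1.51 and 1.29 (adjusted p = 4.93e-05, 2.93e-05 and 0.000189). These 9 calls held without any library of the groups compared. CIITA itself, at 0.304 to 2.52 CPM, did not pass in the same 3 comparisons.

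With LPS, KD and WT differed in 5 of these 10 genes, 3 higher and 2 lower in KD, where 10.8% of all genes were called and 4.55% were lower. IRF1 was lower, at -0.56 (SE 0.10, adjusted p = 0.00293) and so was IFNGR2, at -0.34 (SE 0.08, adjusted p = 0.0112, lost at 0.0604 without KD replicate 5). IFNGR1 was higher by 1.86 (SE 0.41, adjusted p = 0.00792, lost at 0.0575 without WT replicate 6), IRF8 by 1.32 (SE 0.38, adjusted p = 0.0314) and PRDM1 by 0.65 (SE 0.20, adjusted p = 0.0419). The IRF8 call was lost without WT replicates 4 (0.0619) or 6 (0.173) or KD replicates 4 (0.067) or 5 (0.104). The PRDM1 call was lost without WT replicates 4 (0.0976) or 6 (0.231) or KD replicates 4 (0.062), 5 (0.0858) or 6 (0.15). Without LPS PRDM1 was higher in KD by 0.80 (SE 0.22, adjusted p = 0.0185), lost without WT replicates 2 (0.0696) or 3 (0.0588) or KD replicate 1 (0.0736).

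Endosomal proteases did not move as a block. Of 10 tested, 3 were higher and 2 lower in unstimulated KD than in WT, beside 5.85% of all genes in each direction. CTSH, an aminopeptidase, read 14.2, 21.7 and 19.4 CPM in WT and 33.3, 40.3 and 32.3 CPM in KD, a rise of 0.94 (SE 0.14, adjusted p = 0.000291), and it rose in SCR by 0.83 (SE 0.14, adjusted p = 0.00281). It also rose with LPS in WT, by 0.81 (SE 0.15, adjusted p = 0.000455). CTSZ was higher in KD by 0.82 (SE 0.26, adjusted p = 0.0455) and LGMN gave 24, 4 and 13 counts in KD against 3, 0 and 4 in WT (adjusted p = 0.0228). The aspartic protease CTSD fell, at -0.53 (SE 0.13, adjusted p = 0.0111) as did CTSB, at -0.29 (SE 0.09, adjusted p = 0.042).
Apart from CTSH, these calls in unstimulated KD rested on particular libraries. CTSZ was lost without WT replicates 1 (adjusted p = 0.195) or 3 (0.199) or KD replicates 2 (0.0667) or 3 (0.173), LGMN without WT replicates 1 (0.0647), 2 (0.0685) or 3 (0.0689) or KD replicate 1 (0.101), CTSD without WT replicate 3 (0.0939), and CTSB without WT replicates 1 (0.0842), 2 (0.0525) or 3 (0.156) or KD replicates 1 (0.0799) or 3 (0.151).

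With LPS, CTSL was higher in KD than in WT by 1.35 (SE 0.34, adjusted p = 0.0163) and CSTB, an inhibitor of cysteine cathepsins, by 0.76 (SE 0.18, adjusted p = 0.0124), while CTSD was lower, at -0.45 (SE 0.13, adjusted p = 0.03). Without WT replicate 6 these adjusted p-values were 0.103, 0.0902 and 0.143, and without KD replicate 5 they were 0.0692, 0.0521 and 0.0856. CTSD was also lost without WT replicate 4 (0.0904) or KD replicate 4 (0.133).
LPS raised CTSC, which activates serine proteases, in SCR by 0.97 (SE 0.26, adjusted p = 0.0139) and in KD by 1.21 (SE 0.26, adjusted p = 0.00438). The SCR call of CTSC was lost without unstimulated replicate 1 (0.0568) or LPS replicate 5 (0.0678). CSTB rose by 0.55 in SCR (adjusted p = 0.0433) and 0.61 in KD (0.0346), and SPPL2A, the protease that clears the CD74 stub, by 0.51 (0.0352) and 0.54 (0.0383). The CSTB and SPPL2A calls were each lost without at least 4 of their 6 libraries, unstimulated KD replicates 2 and 3 and LPS replicates 5 and 6 among them in KD, with adjusted p-values up to 0.263.

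CD83, which slows the loss of class II molecules from the cell surface, was the 1 gene of the turnover list that passed, of 3 tested. The rise with LPS was 3.06 (SE 0.13) in WT, but 1.51 in SCR and 1.60 in KD (SE 0.12 each), with adjusted p-values of 3.38e-13, 1.35e-08 and 7.32e-09. In unstimulated cells it was already higher than in WT, by 1.45 (SE 0.13, adjusted p = 9.21e-07) in SCR and by 1.17 (SE 0.13, adjusted p = 1.42e-05) in KD. MARCHF1, the ligase that removes class II molecules in monocytes, had 0 to 41 counts and did not pass in any comparison.

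**Figure D5:**
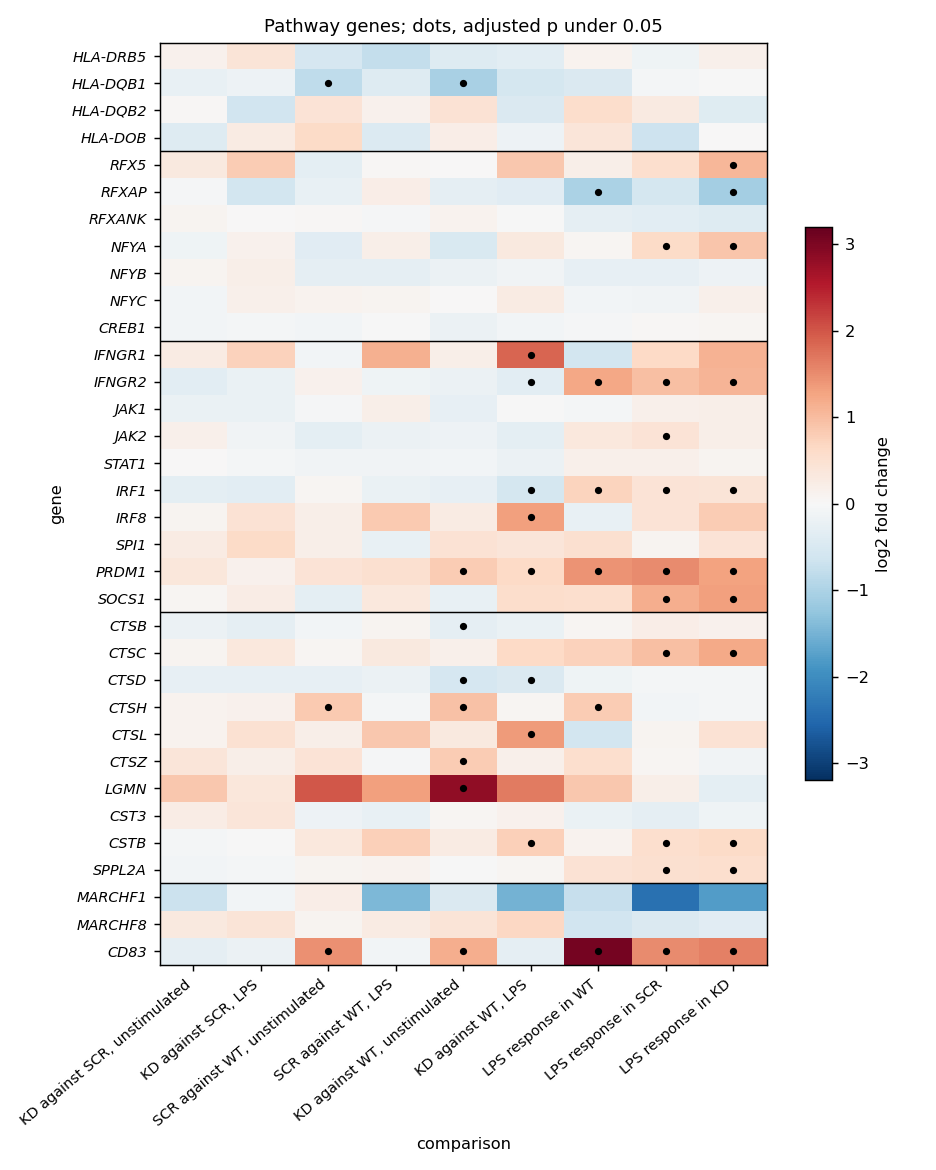
Log2 fold change (colour scale) of the pathway genes that could be tested (y axis, grouped as other class II genes, promoter factors, inputs to CIITA, endosomal genes and turnover) in 9 comparisons (x axis); dots mark an adjusted p under 0.05, 46 in all. The KD against SCR columns hold no dot, and CD83 in WT with LPS, at 3.06, is the darkest red.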

How the data were processed

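THP-1 libraries (18, in 6 groups of 3) were grouped by their titles. The deposited table holds raw counts per gene, which the authors made on GRCh37 with HISAT at default settings and featureCounts of the Rsubread package, with only the last 500 bases of each gene counted; the HISAT version and strand setting were not given in the sources used here. Of 63677 genes, 34092 had a count and 16678 passed filterByExpr. edgeR 4.0.16 (R 4.3.3) fitted all 18 libraries with a mean per group, TMM factors and a quasi-likelihood F test; 95% intervals used 20.8 degrees of freedom. CPM are counts scaled to the library total times the TMM factor. DESeq2 1.42.0, the method of the study, was an alternative. Calls were tested on simulated data. No replicate pair agreed within sampling noise. The limit of 3 counts covers counting error only. Other scalings, filters, tools, a replicate block and left-out libraries were tried.

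The replicate numbers 4 to 6 paired SCR and WT with LPS by their data (correlations of deviations 0.261, 0.163 and 0.253), not by a label; the other 5 comparisons within a state, from -0.087 to 0.304, were not all above 0.1. LPS and unstimulated libraries share no number.

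The genes and lists were chosen with earlier results of these data known. Named were all 9 genes, TRAFD1, CD83, leading markers, and per list, comparison and direction up to 3 genes with the smallest adjusted p under 0.05; the genes most alike are the 5 with the highest Pearson correlation. Promoters came from RefSeq.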

Additional observations from a re-analysis of the deposited data

Results flagged for a closer look

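CD83 was the pathway gene whose LPS response differed between conditions by a test of the difference itself. CD83 read 12.9, 9.70 and 14.4 CPM in unstimulated WT and 103, 109 and 99.6 CPM with LPS. In SCR it went from 34.7, 35.3 and 32.4 to 88.3, 99.4 and 103 CPM, and in KD from 29.3, 28.4 and 26.6 to 93.1, 88.3 and 74.7 CPM. The unstimulated SCR and KD libraries all lay above the WT libraries, whereas with LPS SCR overlapped WT. With LPS the KD libraries lay below the WT libraries without overlap, as in 16.4% of all genes, and CD83 was not called there. The response in SCR was smaller than that in WT, with a log2 difference of -1.5486 (SE 0.17; adjusted p = 8.09e-05 in edgeR), and so was that in KD, at -1.4542 (SE 0.17, adjusted p = 0.000101). Of all genes, 0.234% and 0.36% passed in these 2 comparisons. The WT cells differ from both siRNA groups in siRNA and, by 1 of the labels, in the reagent, which cannot be told apart.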

How the results depend on the processing

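KD against SCR gave 0 of the 8 genes in both states under every alternative run. The count of genes passing moved as follows. The share of all genes passing in each alternative is not given here, so a change in these counts cannot be told from a general change in calls. The replicate block pairs libraries by number in all conditions, though the data gave that pairing for SCR against WT with LPS only. For SCR against WT unstimulated (1) it was 0 with no filter on low counts, in edgeR on 6 libraries and in DESeq2 on 6 libraries, 2 with the replicate block, and 0 to 1 when single libraries were left out. For SCR against WT with LPS (0) it was 1, HLA-DRB1, with no filter, with a mean of at least 1 CPM, in DESeq2, with the replicate block and in both fits on 6 libraries. For KD against WT unstimulated (1) it was 2 with no filter, at 1 CPM and with the block, 0 in edgeR on 6 libraries, and 1 to 3 with libraries left out. For KD against WT with LPS (1) it was 2 with relative log expression factors, in DESeq2, with the block and in both fits on 6 libraries, and 0 to 1 with libraries left out. For LPS in WT (1) it was 0 with no filter and 0 with each library left out, and for LPS in KD (0) it was 0 to 2. The sum of calls over the pathway lists (46) was 70 with no filter, which tested 34092 genes, and 37 to 49 with libraries left out.

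Values near 0 changed sign. HLA-DRB1 in KD against SCR unstimulated was 0.0011 with relative log expression factors, 0.0013 in DESeq2, 0.0305 in edgeR and 0.0079 in DESeq2 on 6 libraries, and -0.1409 to 0.0669 with libraries left out. With LPS, leaving out libraries gave -0.1727 to 0.1147 for HLA-DRA, -0.0428 to 0.0814 for HLA-DRB1, -0.2655 to 0.8248 for HLA-DPA1 and -0.1288 to 0.3089 for HLA-DMA. The LPS value of HLA-DMB was 0.0682 at a pseudocount of 0.1.

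Of the other alternatives over 90 values, 993 kept their side of the threshold, 120 lost it and 25 gained it. DESeq2 gave no adjusted p for 12 values. Of 45 pathway calls named, 23 held with every library left out. The cause of these changes was not tested. Genes with at most 55 counts in any library, CIITA, HLA-DPA1, HLA-DPB1, HLA-DMA and HLA-DMB, are limited by depth.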

Other observations

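The genes whose log2 CPM followed that of a gene of the set most closely over the 18 libraries, among 10375 genes with a mean of at least 5 CPM, are given as a description, since the libraries share groups and depth. For HLA-DRA they were STARD7 (Pearson r 0.844), RFFL (0.821), LPAR4 (0.817), USP18 (0.806) and CMPK2 (0.8), of which USP18 and CMPK2 are known as interferon-stimulated genes. For CD74 they were TXN2 (0.907), SYNGR2 (0.892), CTSA (0.881), RING1 (0.878) and FCGRT (0.876). CTSA is a lysosomal carboxypeptidase and FCGRT the neonatal Fc receptor. For CTSS they were ADAR (0.913), B3GLCT (0.902), STT3A (0.895), DAXX (0.89) and CYB5A (0.873). For CIITA, at 4 to 33 counts, the highest value was 0.742, for PCED1B-AS1. Most class II genes lie below 5 CPM and could not appear among these. After the group means were taken out, r was 0.349 to 0.655 for the 5 genes of HLA-DRA, 0.732 to 0.886 for those of CD74 and 0.33 to 0.695 for those of CTSS, the lowest being CMPK2 at 0.349 for HLA-DRA and ADAR at 0.33 for CTSS.

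Within groups, after the group means were taken out, the log2 CPM of HLA-DRA and HLA-DRB1, the chains of 1 dimer, had a Pearson correlation of -0.518 over 18 libraries, against 0.205 with the group means left in. This is 1 pair of many, given with no test. Within groups HLA-DRA and CD74 had -0.554, and HLA-DRB1 and CD74 had 0.761. HLA-DRA had only 36 to 143 counts per library, and with the group means taken out the 18 values are not independent.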
